A study of Mus musculus with 2 samples.

Results

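Integrins are cell surface receptors made of 1 alpha and 1 beta subunit, and they bind matrix proteins and ligands on other cells. Fibronectin, encoded by Fn1, is bound mainly by receptors that hold the beta subunit Itgb1, with Itga5 as the classical partner. The leukocyte integrins share the beta subunit Itgb2 and serve phagocytes in adhesion and in the uptake of complement-coated material. The values below cover 10 integrin subunit genes, Itgb1, Itga5, Itgav, Itga4, Itgb5, Itga6, Itgam, Itgb2, Itgax and Itgal, of 31053 gene rows in a single-cell table of optic nerve myeloid cells, macrophages and microglia. They were chosen by name, and all 10 were found.

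Cells came from wildtype 129S1/SvlmJ mice of both sexes. In the injured group the optic nerve was crushed at 8 weeks of age and collected 2 weeks later, at 10 weeks of age, and the uninjured group was collected at 10 weeks of age with no treatment. Each group was 1 library; the number of animals behind it is not stated in the labels. The injured library held 727 cells and the uninjured library 51, with 0 cell barcodes in common. Subunits and Fn1 were set side by side in the 144 injured cells with at least 5000 UMIs (molecular tags that mark single captured transcripts), called deep cells here, which held 79.9% of the injured UMIs. With 1 library per group there is no replicate check, so no test was made, and each interval is an exact 95% interval for counting error only.

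The 144 deep cells were ordered by Fn1 UMIs as a share of all UMIs in the cell and divided into 3 groups of 48, called Fn1-low, Fn1-middle and Fn1-high. The Fn1 share ran from 0 to 0.0289% in Fn1-low, from 0.0291% to 0.124% in Fn1-middle and from 0.125% to 0.938% in Fn1-high cells, so the groups meet with no gap. The summed Fn1 level, 115, 650.3 and 2520 CPM (the gene's UMIs over all UMIs of the cells, scaled to a common total), follows from that choice. Only 15 deep cells had no Fn1 UMI, all of them Fn1-low. Median depth was 17926.5, 21746 and 19595 UMIs, and mitochondrial genes took 2.36%, 2.21% and 2.96% of UMIs.

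The cells of the 3 groups also differed in their other markers. Microglial markers summed to 3975, 5559 and 5808 CPM from Fn1-low to Fn1-high. Their median per cell was 3824, 5935 and 5387 CPM, highest in Fn1-middle cells. Of the 8 listed genes 5 passed a ratio of 1.5 upward in Fn1-high cells, beside 7.57% of 8142 genes. In the other direction 1 passed, beside 6.77%. P2ry12, a purinergic receptor of resident microglia named after its values were seen, was at 20.2, 35.8 and 60.6 CPM, a small part of that sum. Border macrophage markers summed to 290.4, 432 and 453 CPM, with Lyve1 at 0. Monocyte and macrophage markers summed to 24938, 15466 and 9800 CPM, nearly all of it from Lyz2. Of the 8 listed, 2 passed the 10% filter. Both, Lyz2 and Ms4a7, were lower in Fn1-high cells, beside 6.77% of 8142 genes. Lyz2, a lysozyme gene, was at 24261, 14971 and 9694 CPM. Ms4a7, a membrane gene of macrophages, was at 614, 481 and 95.8 CPM and was seen in 37 Fn1-low but 18 Fn1-high cells. Of the markers for other cell types, T and NK cell genes were at 97.6 CPM in Fn1-low, 0.917 in Fn1-middle and 0 in Fn1-high cells, and all 3 deep cells with at least 2 of these genes were Fn1-low. Fibroblast, endothelial, B cell, dendritic, neutrophil and erythroid lists each summed to under 20 CPM in every group. In these groups summed myelin markers were at 320.2, 227 and 382 CPM, and astrocyte markers at 77.4, 136 and 204 CPM, with Aldh1l1 at 0. The part of these markers in the integrin values was not tested, beyond the splits by Ms4a7 and T cell genes given below.

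Among deep cells the beta subunits were the most abundant members. UMIs count captured transcripts and not fragments along them, so levels were not divided by gene length; capture can still differ between genes. Itgb5, which pairs with Itgav in a vitronectin receptor, stood at 761 CPM (730.1 to 793) and was seen in 138 of 144 cells. Itgb1 was at 345 CPM (325 to 367) in 141 cells, and Itgb2 at 218 CPM (202 to 236) in 123 cells. Below them were Itgax at 167 CPM (152 to 182) and Itgam at 144 CPM (131 to 158), whose intervals overlap. Itga6, a laminin receptor subunit, was at 57.6 CPM, Itga4 at 41.0 CPM, Itgav at 37.3 CPM (30.6 to 44.9) and Itga5 at 20.3 CPM (15.5 to 26.2). Itga4 (34.0 to 48.96) and Itgav overlap, while Itga5 lies under both. Itgal, the alpha chain of the lymphocyte and leukocyte integrin LFA-1, was scarcest, with 14 UMIs in 14 cells.

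As a measure of free RNA, the 3 deep cells with T cell genes held no UMI of Itgb5, Itgam, Itgax, Itgav, Itga5, Itga6 or Fn1, at a median depth of 5639 UMIs against 19365 in the other deep cells. They did hold 4 Itgb1 and 3 Itga4 UMIs, and 1 each of Itgb2 and Itgal. A count of 0 in 3 cells allows a share of up to 70.8%, so these cells set only a loose limit.

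**Figure D1:**
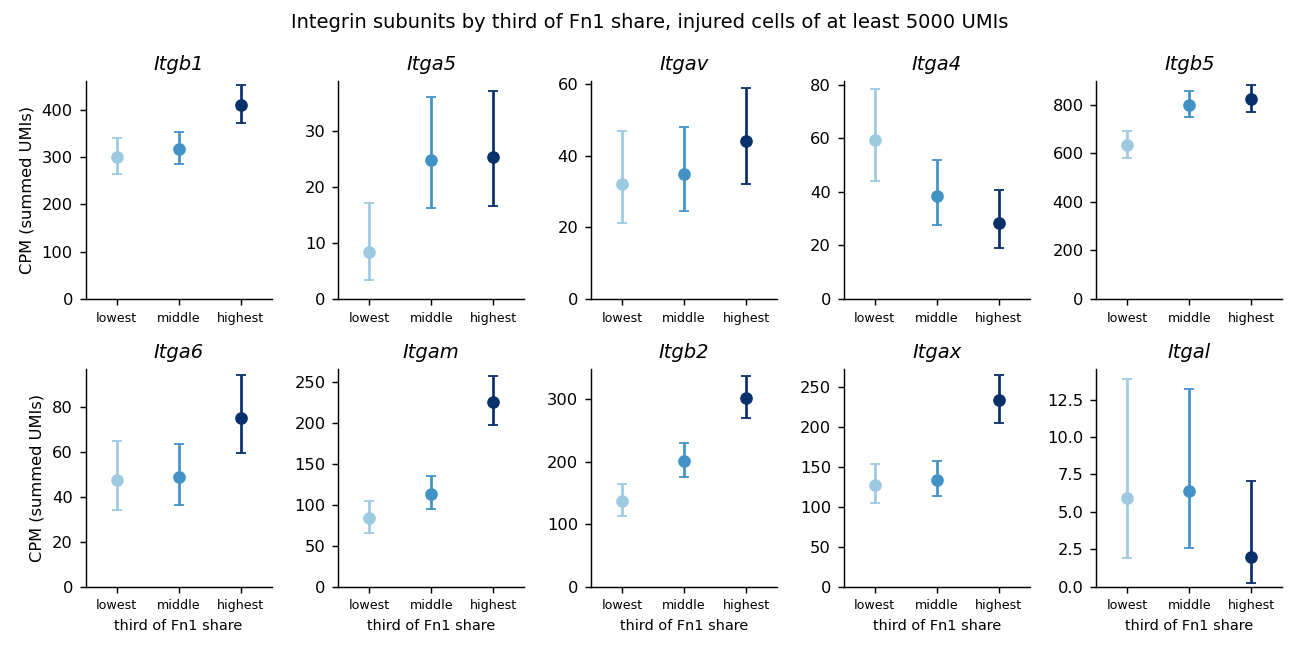
Level in CPM of each subunit in the Fn1-low (lowest), Fn1-middle and Fn1-high (highest) groups of 48 injured deep cells each, from summed UMIs, with bars for the exact Poisson interval. Itgam, Itgb2 and Itgax are higher and Itga4 is lower in the highest group, while the Itgal intervals overlap in all 3.

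The question put to the groups was whether cells that hold more Fn1 RNA also hold more RNA of the subunits that receive it. Itga5, Itgam, Itgb2 and Itgax were higher in Fn1-high than in Fn1-low cells, Itga4 was lower, and Itgb1, Itgav, Itgb5 and Itga6 lay between. A gene counted as higher or lower at a ratio of 1.5 in CPM + 10, and genes were compared if seen in at least 10% of deep cells; Itgal missed this at 9.72%. By this rule 4 of the 9 compared members were higher, beside 7.57% of 8142 genes, and 1 was lower, beside 6.77%. The median log2 ratio on the CPM + 10 scale was 0.57 for the 9 members and -0.01 for all 8142 genes. Since the members were chosen with earlier results known, these shares are a description only.

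**Figure D2:**
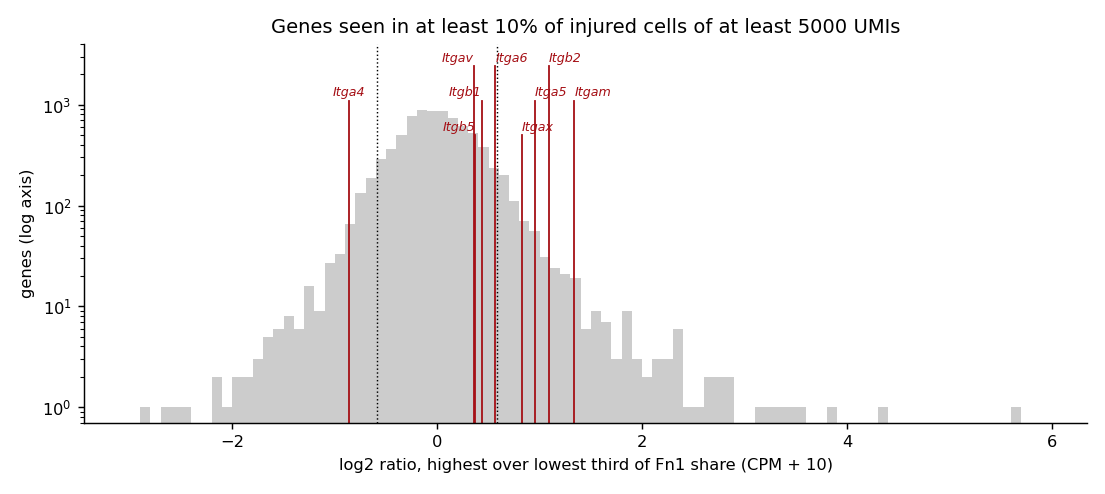
Log2 ratio of the level in Fn1-high over Fn1-low cells (x axis, CPM + 10) for the 8142 genes compared, as a count of genes on a log axis, with the 9 compared members as red lines and the 1.5-fold rule as dotted lines. Of the members 8 lie to the right of 0 and only Itga4, at -0.86, to the left; Fn1 itself, which set the groups, is among the genes plotted.

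The fibronectin-binding subunits did not follow Fn1 alike. Itgb1, the shared beta chain, was at 301, 318 and 411 CPM from Fn1-low to Fn1-high (253, 347 and 420 UMIs), a ratio of 1.36 between the outer groups (1.16 to 1.60), under the rule of size. At full depth 46, 47 and 48 of the 48 cells held it, near the ceiling. After thinning each cell to 5000 UMIs it was in 36 Fn1-low, 36 Fn1-middle and 47 Fn1-high cells, and the log2 ratio of that single draw was 0.91, against 0.44 from all UMIs and 0.52 with equal weight per cell. Itga5 was at 8.33, 24.8 and 25.4 CPM (7, 27 and 26 UMIs), a ratio of 3.05 (1.29 to 8.33). It was seen in 6, 15 and 17 cells, or 2, 5 and 5 after thinning. The level interval of Fn1-low cells (3.35 to 17.2 CPM) slightly overlaps those of Fn1-middle (16.3 to 36.0) and Fn1-high cells (16.6 to 37.3). The 7 UMIs in the Fn1-low group leave the size of the ratio uncertain.

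Itga4, whose receptor with Itgb1 binds VCAM1 and a spliced segment of fibronectin, went the other way. Its level was 59.5, 38.5 and 28.4 CPM (50, 42 and 29 UMIs), 2.10-fold lower in Fn1-high than in Fn1-low cells (1.302 to 3.44). It was seen in 23, 22 and 16 cells. Among the 90 deep cells with an Ms4a7 UMI, regrouped by Fn1 share, Itga4 stood at 47.2 CPM in the Fn1-high and 54.96 CPM in the Fn1-low group, a ratio of 0.858 (0.509 to 1.45). In the 54 without Ms4a7 the ratio was 0.478 (0.143 to 1.45), on 6 and 10 UMIs. Without the cells with T cell genes it was 0.538 (0.327 to 0.870).

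Itgav, the alpha chain of several receptors that read the RGD motif of matrix proteins, was at 32.1, 34.9 and 44.0 CPM, a ratio of 1.37 (0.831 to 2.30) whose interval includes 1. Its partner Itgb5 was at 634, 800 and 824 CPM (533, 872 and 843 UMIs), a ratio of 1.299 (1.16 to 1.45). Most of that step lay between Fn1-low and Fn1-middle cells. Itga6 was at 47.6, 48.6 and 75.3 CPM, a ratio of 1.58 (1.07 to 2.38) that the added 10 CPM brings just under the rule of size. In cells without Ms4a7 its ratio was 2.61 (1.298 to 5.68), and in cells with Ms4a7 1.08 (0.633 to 1.86).

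Itgam, Itgb2 and Itgax of the leukocyte integrins were each highest in Fn1-high cells. Itgam, the alpha chain of complement receptor Mac-1, was at 83.3, 114 and 226 CPM (70, 124 and 231 UMIs), 2.71-fold higher in Fn1-high than in Fn1-low cells (2.07 to 3.60). Itgb2, the shared leukocyte beta chain, was at 137, 202 and 302 CPM (115, 220 and 309 UMIs), 2.21-fold higher (1.78 to 2.76). Itgax, the alpha chain of dendritic cells and activated microglia, was at 127, 134 and 234 CPM (107, 146 and 239 UMIs), 1.84-fold higher (1.46 to 2.33). The Itgb2 intervals of the 3 groups do not touch, whereas for Itgax the Fn1-low and Fn1-middle groups overlap. Itgal had 5, 7 and 2 UMIs, too few to order.

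The same 3 genes were then read in subsets of cells. In cells without Ms4a7 the ratios of Itgam and Itgb2 were 2.54 (1.69 to 3.91) and 2.35 (1.60 to 3.51), and that of Itgax 1.11 (0.719 to 1.73). In cells with Ms4a7 all 3 were higher in Fn1-high cells, Itgam by 1.66 (1.17 to 2.40), Itgb2 by 1.68 (1.29 to 2.19) and Itgax by 1.72 (1.27 to 2.34). With groups formed inside 3 depth ranges the ratios were 2.59, 1.96 and 1.66. In the 45 cells of 5000 to 15000 UMIs the log2 ratios were 0.82 for Itgam, 2.33 for Itgb2 and 1.38 for Itgax, against 1.34, 1.09 and 0.83 in all deep cells, so the order of the 3 genes by size differed there. In injured cells under 5000 UMIs, 253 Fn1-bearing cells (median 1186 UMIs) were set against 330 Fn1-free cells (median 799.5 UMIs). There Itgam was at 120 and 43.7 CPM, a ratio of 2.74 (1.51 to 5.27), Itgb2 at 257 and 137 CPM, a ratio of 1.88 (1.32 to 2.71), and Itgax at 207 and 166 CPM, a ratio of 1.25 (0.879 to 1.78). Itgb5 was at 919 and 538 CPM in these cells, a ratio of 1.71 (1.43 to 2.05).

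**Figure D3:**
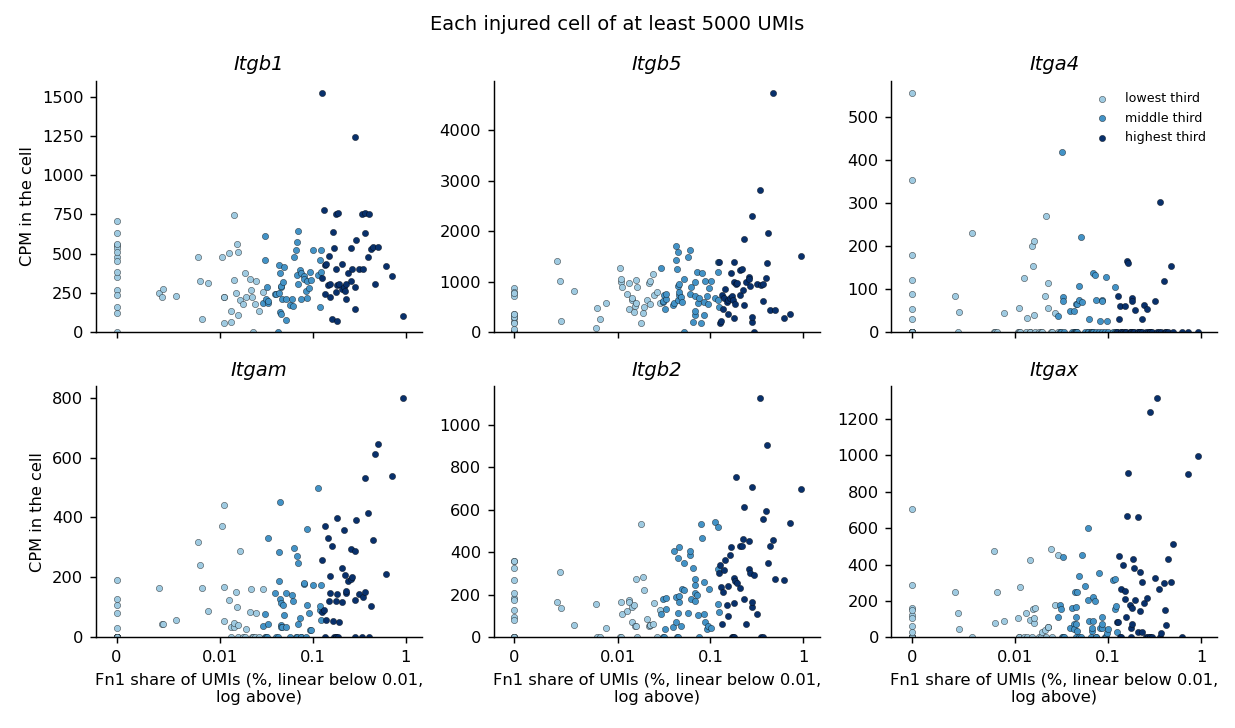
Each point is 1 of the 144 injured deep cells, with its Fn1 share of UMIs (x axis, percent, linear below 0.01 and logarithmic above) against its level of 6 subunits (y axis, CPM in that cell); shades mark the 3 Fn1 groups. The groups overlap for every subunit, and the cells highest in Itgam, Itgb2 and Itgax are in the Fn1-high group.

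Within groups single cells varied widely. The median Itgam level per cell was 44.8, 78.0 and 152 CPM in Fn1-low, Fn1-middle and Fn1-high cells, and the highest cell reached 798 CPM. For Itgb2 the medians were 118, 178 and 297.6 CPM, with a highest cell of 1126 CPM. No single cell held more than 11.7% of the UMIs of any member, a share reached for Itga5. Over the 144 cells, Spearman's rho with the Fn1 share was 0.43 for Itgb2, 0.38 for Itgam and between -0.15 and 0.26 for the other members. Both measures share the cell's total, its depth and its free RNA, so these are descriptions.

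Itgam and Itgax were both higher in Fn1-high than in Fn1-low deep cells and pair with the same beta chain, while Itga4 was lower. For this reason the sequence just before the start sites of these genes was set side by side. Itgam and Itgax did not go together in every subset. In cells with Ms4a7 their ratios were 1.66 and 1.72, but without Ms4a7 they were 2.54 and 1.11 (0.719 to 1.73 for Itgax). Windows of 250 bases come from RefSeq's table for GRCm38.p6, which covers 7 of the 10 members. The letters GAGGAA, a form of the site bound by PU.1, a myeloid transcription factor, were searched on both strands and are shown in capitals. Other forms of the site were not searched. The windows lie on the plus strand, 5′ to 3′, at chr7:128062390-128062639 for Itgam, chr7:128129300-128129549 for Itgax and chr2:79255176-79255425 for Itga4.
Itgam: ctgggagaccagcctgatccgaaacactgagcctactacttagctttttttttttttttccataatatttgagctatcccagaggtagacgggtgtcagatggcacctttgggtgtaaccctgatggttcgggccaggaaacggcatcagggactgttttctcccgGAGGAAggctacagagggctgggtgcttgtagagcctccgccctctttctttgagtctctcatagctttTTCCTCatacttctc
Itgax: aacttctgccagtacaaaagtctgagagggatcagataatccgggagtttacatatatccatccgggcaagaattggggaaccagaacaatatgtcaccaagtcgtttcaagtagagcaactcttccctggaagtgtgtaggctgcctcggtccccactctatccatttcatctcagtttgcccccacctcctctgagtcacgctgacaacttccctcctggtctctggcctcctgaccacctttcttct
Itga4: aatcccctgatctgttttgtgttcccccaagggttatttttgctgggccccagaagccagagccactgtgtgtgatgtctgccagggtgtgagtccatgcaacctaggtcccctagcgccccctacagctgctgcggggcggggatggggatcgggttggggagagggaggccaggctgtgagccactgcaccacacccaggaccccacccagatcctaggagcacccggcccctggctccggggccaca

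Itgam holds GAGGAA 84 bases before its start and the same letters on the opposite strand 15 bases before it. Neither Itgax nor Itga4 holds them in this window. Of the 7 members with a window 4 hold them (Itgb1, Itga5, Itgav and Itgam), beside 23.3% of 32851 RefSeq windows of this length. The GC box letters GGGCGG are in 5 of the 7, with Itgav and Itgax lacking them, beside 32.7% of all windows, and TATAAA is in 0 of the 7, beside 12.4%. In GENCODE vM21, which uses the same assembly, the protein-coding genes Itgal, Itgam and Itgax lie on chromosome 7 from 127296260 to 127335138, from 128062640 to 128118491 and from 128129547 to 128150657, all on the plus strand. Itgb2 is on chromosome 10 from 77530252 to 77565708.

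A receptor needs both subunits, so pairs were counted in the same deep cell. Of the 8 pairs known to form heterodimers, Itgam with Itgb2 was seen together in 97 of 144 cells, 67.4% (59.1 to 74.9), and Itgax with Itgb2 in 96, 66.7% (58.3 to 74.3). Itga6 with Itgb1 followed in 82 cells, 56.9% (48.4 to 65.2). The RGD-binding pairs Itgav with Itgb1 and Itgav with Itgb5 were in 66 and 65 cells. Itga4 with Itgb1 was in 60 cells, and the classical fibronectin receptor Itga5 with Itgb1 in 38 cells, 26.4% (19.4 to 34.4). Itgal with Itgb2 was rarest, in 13 cells.

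These counts follow the scarcer alpha chain, since Itgb1 was nearly everywhere. All 38 cells with Itga5 and all 66 with Itgav also held Itgb1, while only 3 cells lacked Itgb1. Itgb2 was absent from 21 cells and so leaves more to see: Itgam was in 97 of 123 cells with Itgb2, 78.9% (70.6 to 85.7), and in 10 of 21 without it, 47.6% (25.7 to 70.2). Itgax stood at 78.0% (69.7 to 85.0) and 47.6% (25.7 to 70.2) in the same cells. Cells with Itgb2 were also deeper, with a median of 20943 against 11301 UMIs. With each cell thinned to 5000 UMIs the shares were 47.4% (35.8 to 59.2) and 35.3% (24.1 to 47.8) for Itgam, and 52.6% (40.8 to 64.2) and 38.2% (26.7 to 50.8) for Itgax. At equal depth the intervals overlap for both, while at full depth they overlap only for Itgax.

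Subunits that are not partners also shared cells. The median share of cells with both subunits was 45.5% over the 8 partner pairs and 32.6% over the 37 other pairs. After thinning it was 19.1% and 7.64%. These medians were not matched for abundance: each partner pair holds a beta chain, while the other pairs include pairs of alpha chains. Itga5, Itga4 and Itga6 were seen with their partner Itgb1 in 38, 60 and 82 cells. With Itgb5, which is not their partner, they were in 36, 58 and 82. Whether partners share cells more often than abundance alone gives was not tested. The pair seen together most often, Itgb1 with Itgb5 in 94.4% of cells, is of 2 beta chains that do not form a receptor. Over the 144 cells the highest rho between any 2 members was 0.37, for Itgb2 and Itgax, and the lowest was -0.18, for Itga4 and Itgax.

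**Figure D4:**
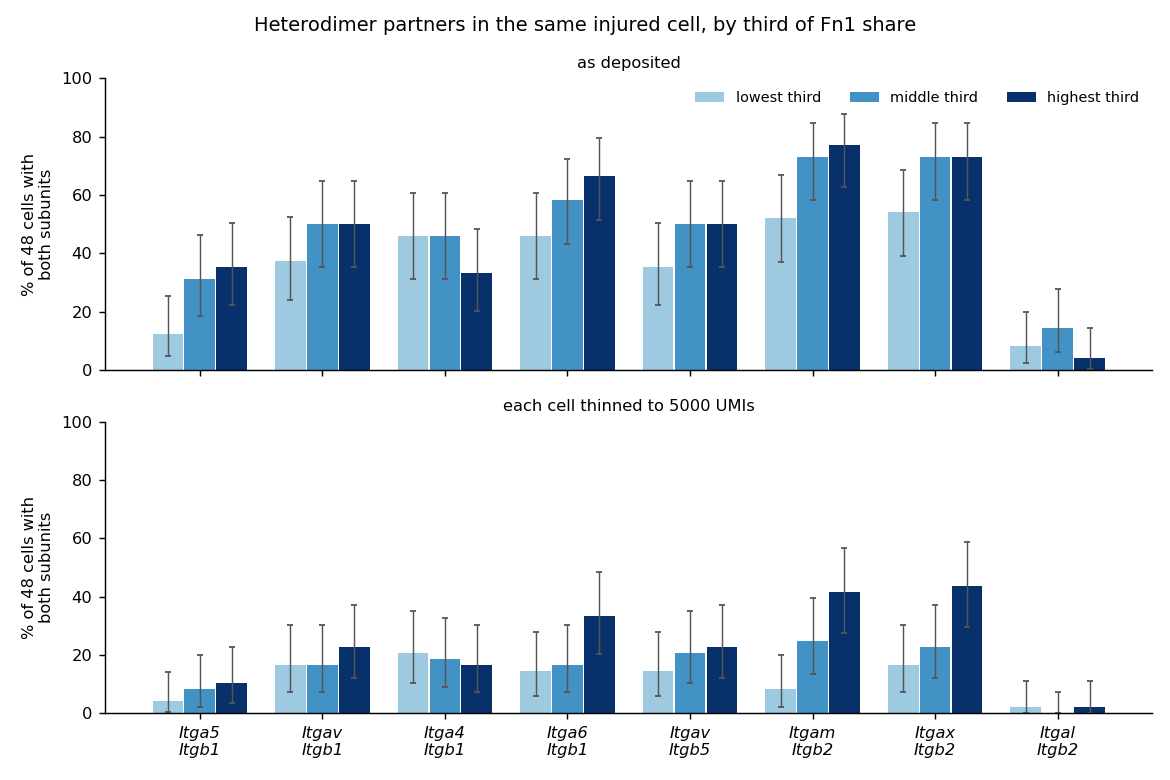
Share of the 48 cells of each Fn1 group that held both subunits of a partner pair, as deposited (top) and after thinning each cell to 5000 UMIs (bottom), with exact binomial intervals. Itgam with Itgb2 and Itgax with Itgb2 are in more of the Fn1-high than of the Fn1-low cells, and Itga4 with Itgb1 is the exception among pairs with Itgb1.

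By Fn1 group, Itgam with Itgb2 was complete in 25, 35 and 37 of 48 cells, and after thinning in 4, 12 and 20. For Itgax with Itgb2 the counts were 26, 35 and 35, and after thinning 8, 11 and 21. Itga5 with Itgb1 was complete in 6, 15 and 17 cells, or 2, 4 and 5 after thinning, near the limit of detection at that depth. Itga4 with Itgb1 was in 22, 22 and 16 cells, or 10, 9 and 8 after thinning.

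RNA of Fn1 and of receptor subunits was often seen in the same deep cell, where most cells held Fn1. At least 1 of the fibronectin-binding pairs of Itgb1 with Itga5, Itgav or Itga4 was complete in 109 deep cells, 75.7% (67.9 to 82.4). Of these 109 cells 100 also held Fn1, a share near the 129 of all 144 deep cells. Of the 15 cells without Fn1, 9 held such a pair. By group the pairs were complete in 32, 40 and 37 cells, and after thinning in 14, 16 and 23. All 3 pairs at once were seen in 10 cells. The 38 cells with Itga5 and Itgb1 included 37 with Fn1, beside 129 of all 144 cells, at a median of 25957 UMIs.

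Among the 3 beta chains Itgb5 led in most cells. It took 57.5% of their UMIs in deep cells, Itgb1 26.1% and Itgb2 16.5%. Itgb5 had the most UMIs of the 3 in 111 cells, Itgb1 in 24 and Itgb2 in 5, with 4 ties. The share of Itgb2 was 12.8%, 15.3% and 19.7% from Fn1-low to Fn1-high cells. In the whole libraries Itgb5, Itgb1 and Itgb2 took 57.6%, 26.1% and 16.3% of 4868 injured UMIs, and 80.2%, 9.88% and 9.88% of only 81 uninjured UMIs.

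The levels in both libraries place the deep cells in the study. In all, 8 members passed the 10% filter in one library or the other. Of these, Itgb1, Itgb2 and Itgax (3 genes) were higher by the same rule after injury, beside 32.8% of 4021 genes. Itgav and Itga4 (2 genes) were lower, beside 21.8%. Both counts lie near the shares over all genes. The median log2 ratio was 0.05 for the 8 members and 0.17 for all 4021 genes. Itgb1 was at 344 CPM after injury (1272 UMIs) and 91.4 CPM without it (8 UMIs), a ratio of 3.76 (1.90 to 8.73). Itgb2 was at 215 and 91.4 CPM (794 and 8 UMIs), a ratio of 2.35 (1.19 to 5.46). Itgav was at 41.6 and 137 CPM (154 and 12 UMIs), 3.29-fold lower (1.67 to 5.92), and Itga4 at 45.2 and 103 CPM (167 and 9 UMIs), 2.28-fold lower (1.02 to 4.43). The uninjured counts are small for each of them. Itgb1 (39.6% and 9.80% of cells) and Itgax (27.9% and 1.96%), both called higher, passed the 10% filter only through the injured library, so their being among the genes compared depended on it. Itga4 and Itga6 likewise passed only through the injured library. Itgam was at 132 CPM in the injured library (488 UMIs) and 126 CPM in the uninjured library (11 UMIs), a ratio of 1.0497 (0.581 to 2.12). Itga6 was at 53.5 CPM (198 UMIs) and 68.6 CPM (6 UMIs), a ratio of 0.781 (0.352 to 2.15). Both intervals include 1, and the pooled values set a library with 79.9% of its UMIs in deep cells against one with 41.1% in 4 deep cells. With equal weight per cell the log2 ratios of Itgam and Itga6 were -0.69 and -1.16, and in cells under 5000 UMIs -0.96 and -1.17, so neither pooled value holds across these settings. Itgal had 28 injured UMIs and 0 uninjured UMIs, so no direction can be read: a count of 0 allows up to 34.3 CPM by the floor of 3 counts, or 42.2 CPM by the exact upper limit, both above the injured 7.57 CPM. Itgax, with 632 injured UMIs in 203 cells and 1 uninjured UMI, had the highest ratio, 14.95 (2.67 to 592), and Itga5, with 85 and 1 UMIs, was seen in too few cells to be compared.

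**Figure D5:**
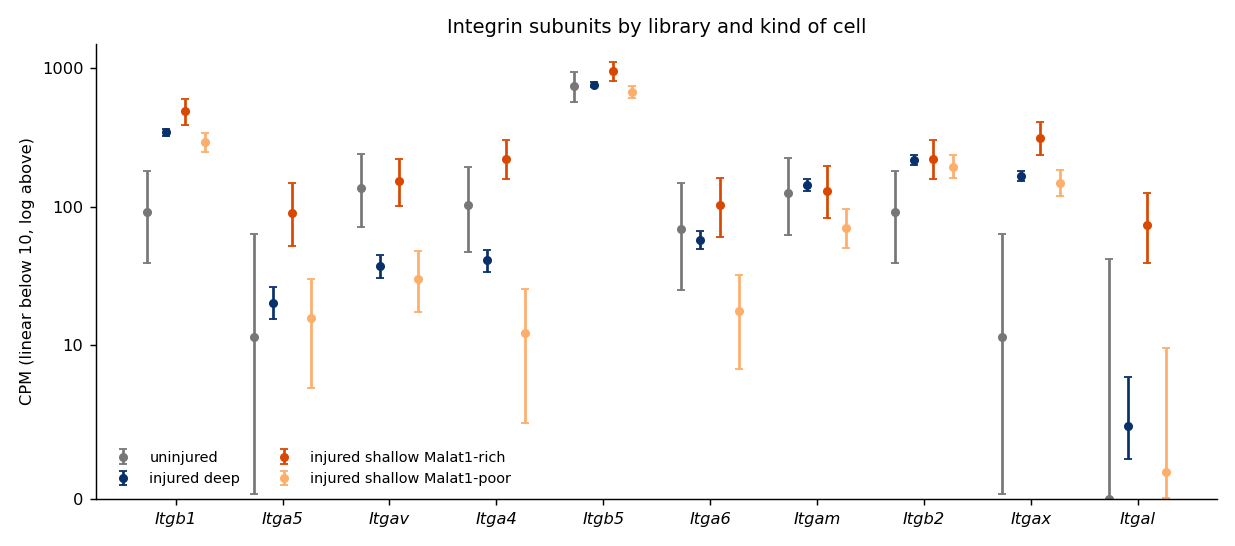
Level of each subunit (CPM, linear below 10 and logarithmic above) in the uninjured library, in injured deep cells, and in injured cells under 5000 UMIs with at least (Malat1-rich) or under (Malat1-poor) 1% of UMIs from Malat1, with exact Poisson intervals. Itgb5 is highest of the members in each. Itgb1, Itga5, Itgav, Itga4, Itgb5, Itgax and Itgal are higher in Malat1-rich than in deep injured cells, with intervals that do not overlap.

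Several subunits differed between deep injured cells and those under 5000 UMIs. The latter were divided at 1% of UMIs from Malat1, a nuclear RNA, into 91 Malat1-rich and 492 Malat1-poor cells. Itga4 was at 221 CPM in Malat1-rich cells (157 to 303), 41.0 CPM in deep cells and 12.3 CPM in Malat1-poor cells (4.95 to 25.4). Itga5 was at 90.8, 20.3 and 15.8 CPM in the same order, and Itgav at 153, 37.3 and 29.9 CPM. Itgal was at 73.8 CPM on 13 UMIs in 7 Malat1-rich cells, against 1 UMI in all Malat1-poor cells. The 5 injured cells with T cell genes, of any depth, held 21 Itgb1, 12 Itga4 and 2 Itgal UMIs. Of the Itgb1 UMIs in these cells 4 were in deep cells. The part of cells with T cell genes in the Malat1-rich levels was not tested. Of the beta chains, Itgb1 was at 488 CPM in Malat1-rich cells (390.3 to 603), on 86 UMIs that may include those of cells with T cell genes. Itgb5 was at 953 CPM (815 to 1109), and both lay above their intervals in deep cells. Itgb2 was at 221, 218 and 195 CPM in Malat1-rich, deep and Malat1-poor cells, with overlapping intervals. Itgam was at 131 CPM in Malat1-rich cells (82.7 to 196), overlapping its interval in deep cells. Itgax was at 312 CPM in Malat1-rich cells (235 to 406), above its level in deep cells of 167 CPM (152 to 182). In Malat1-poor cells Itgax was at 149 CPM (119 to 185).

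Other genes around the receptors were read from lists in the same Fn1 groups. Of 18 compared genes of integrin activation and adhesion, 2 were higher in Fn1-high cells, beside 7.57% of 8142 genes, and 1 lower, beside 6.77%. Both counts lie near those shares, and 15 genes were under the rule of size. The median log2 ratio of the 18 was 0.13. Tln1, which encodes talin, the protein that switches integrins on, was at 287, 284 and 386 CPM, and Fermt3, the kindlin of blood cells, at 117, 139 and 148 CPM, both under the rule of size. Apbb1ip, which brings talin to the membrane, was at 168, 174 and 281 CPM, a ratio of 1.67 (1.36 to 2.06). Tln2, a second talin gene, was at 13.1, 15.6 and 30.3 CPM, and Lims1, an adaptor of the integrin-linked kinase, at 44.0, 43.1 and 66.5 CPM, the latter under the rule. Syk, a kinase downstream of leukocyte integrins and Fc receptors, was lower, at 97.6, 62.4 and 47.9 CPM. None of the 16 other integrin subunits reached 10% of deep cells, and 7 of them had no UMI there. Itgb7, a partner of Itga4 in lymphocytes, had 22 UMIs in 6 Fn1-low cells and 0 in the other groups; 7 of the 22 were in the 3 cells with T cell genes.

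Among integrin ligands the widest differences were in Postn, Icam1 and Spp1. Of 10 compared ligand genes besides Fn1, 3 were higher in Fn1-high cells, beside 7.57% of 8142 genes, and 1 lower, beside 6.77%. Their median log2 ratio was 0.50. Spp1, the RGD-bearing osteopontin, was at 5636, 8436 and 27382 CPM, 4.86-fold higher (4.71 to 5.01) and seen in 42 Fn1-low and 47 Fn1-high cells. Icam1, the ligand of Itgb2 integrins, was at 75.0, 176 and 411 CPM, 5.48-fold higher (4.19 to 7.26). Postn, the matricellular periostin, was at 16.7, 13.8 and 220.02 CPM, but 25.6% of its UMIs were in 1 cell. Thbs1, thrombospondin, was lower, at 70.2, 44.95 and 19.6 CPM.

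Of 6 compared genes for other fibronectin receptors and matrix assembly, 2 were higher, beside 7.57% of 8142 genes, 1 lower, beside 6.77%, and 3 between. Sdc4, a syndecan that binds fibronectin beside Itga5 and Itgb1, was at 58.3, 150.4 and 434 CPM, 7.44-fold higher (5.53 to 10.2), with 18.6% of its UMIs in 1 cell. Sdc3, another syndecan, was at 54.8, 85.3 and 103 CPM, a ratio of 1.88 (1.31 to 2.71). Tgm2, a transglutaminase that links fibronectin to integrins, was lower, at 65.5, 32.1 and 31.3 CPM. Plaur, the urokinase receptor, was at 105, 122 and 154.5 CPM, under the rule of size.

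Over all genes the largest differences between the Fn1 groups lay outside the integrins. Besides Fn1, 10 genes were ranked highest by the ratio of Fn1-high over Fn1-low cells in CPM + 10. They were Cxcl13, Tnf, Mki67, Olr1, Cxcl1, Cxcl2, Postn, Cxcl10, Tnfrsf11b and Mmp12, of which 4 are CXC chemokines. Cxcl13, Mki67, Olr1, Postn, Cxcl10 and Tnfrsf11b were seen in under 10% of Fn1-low cells. They passed the 10% filter only through the other groups, so their being ranked depended on the groups where they were high. Cxcl10 peaked in Fn1-middle cells, at 9.52, 180 and 133 CPM from Fn1-low to Fn1-high. Tnf, an inflammatory cytokine gene, was at 17.9, 99.1 and 388 CPM, 21.7-fold higher (13.02 to 39.2). Cxcl2, which attracts neutrophils, was at 201, 1002 and 2025 CPM, 10.1-fold higher (8.60 to 11.8). These genes gathered in few cells: Cxcl13 was seen in 34 of 144 cells and 32.6% of its UMIs were in 1 cell, and for Mki67, a proliferation gene, 1 cell held 30.8%. Tnfrsf11b had no UMI in Fn1-low cells and was at least 17.3-fold higher in Fn1-high cells with the Fn1-low group set at a floor of 3 counts. The exact lower limit of the ratio was 13.6, but 47.8% of the Tnfrsf11b UMIs were in 1 cell. The 10 ranked lowest by the same ratio were Napsa, Cdo1, Ms4a7, Plbd1, S100a11, Gstm1, Adgre5, Anpep, Ahnak and the MHC class II gene H2-Aa. H2-Aa was at 1452, 211 and 388 CPM. Napsa and Plbd1 passed the filter only through Fn1-low cells, each seen in 20.8%, 6.25% and 4.17% of cells from Fn1-low to Fn1-high.

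For the 6 members seen in at least 50% of the deep cells, the genes with the most similar levels were ranked by Spearman's rho among 2663 genes over the 144 cells. Itgb2 was most like Lpl, lipoprotein lipase (0.52), Csf2ra, a GM-CSF receptor chain (0.50), and Lrpap1 (0.47). Itgam was most like Plxdc2 (0.42), Lpl (0.42) and Adam15 (0.39). For Itgax the nearest were the lysosomal genes Ctsa (0.49), Ctsz (0.46) and Hexa (0.44). Itgb5 was most like Csf1r, the receptor for macrophage colony-stimulating factor (0.52), Ldhb (0.52) and Ctsh (0.49). Itga6 reached 0.37 with Vps13c and 0.30 with Lpl. Itgb1 had no close gene, with 0.29 for Tmed2, 0.28 for Dgkz and 0.27 for Tm9sf3.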

How the data were processed

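Per the labels' protocols, dissected optic nerve was digested and triturated to single cells, captured on the Chromium System and sequenced on Illumina. Per the submitters' processing notes the tools were Seurat 4.0.3, Cell Ranger 1.3 and bcl2fastq 2.17.1.14, with build mm10. The deposited values are raw UMI counts of 778 cells in 1 table, within the stated range of 200 to 6500 genes per cell; the labels do not say how myeloid cells were picked. The table gives each cell's condition. Of its rows 26 carry names turned into dates and were left out of comparisons but not of totals. No doublet caller was run.

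Levels (CPM) are UMIs summed over cells, scaled to a common total. Exact 95% intervals are Poisson (levels), Clopper-Pearson (shares) and conditional binomial (ratios). Calls used a ratio of 1.5 in CPM + 10 among genes seen in at least 10% of the cells. Thinning drew 5000 UMIs per deep cell once. Named genes are Fn1, the members, up to 4 genes per list and the 10 highest and lowest by log2 ratio, and the 3 nearest by rho, of which 1 for Itga6 is not reported here; others, such as P2ry12, Ms4a7, Tln1, Fermt3 and Itgb7, were chosen after their values were seen. Members and lists were chosen with earlier results of these data known. Of the ligand list 21 of 23 names were in the table. The calling rule was tested on simulated data. Software was Python 3.11.15 with numpy 2.4.6, scipy 1.17.1, pandas 2.3.3 and matplotlib 3.10.9.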

Additional observations from a re-analysis of the deposited data

How the results depend on the processing

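The count of 4 members higher in Fn1-high cells became 2 with a fold of 2 and 2 of 4 compared in cells under 5000 UMIs (Fn1-bearing against Fn1-free); under the other alternatives run it stayed within 1.5 times. The count of 1 lower became 0 with a fold of 2, with a pseudocount of 50 CPM, in cells of 5000 to 15000 UMIs, in cells with Ms4a7 and in cells under 5000 UMIs. The splits by Ms4a7, by T cell genes and below 5000 UMIs were chosen after seeing the data. In the 45 cells of 5000 to 15000 UMIs the log2 ratio was 1.59 for Itgb5, against 0.37, -0.54 for Itgav, against 0.36, 2.33 for Itgb2, against 1.09, 1.38 for Itgax, against 0.83, 1.59 for Itga5, against 0.95, and 0.82 for Itgam, against 1.34. Over all genes the 616 higher and 551 lower became 162 and 91 with a fold of 2, 165 and 79 with a pseudocount of 50 CPM, 1194 and 1175 with one of 1 CPM, 388 and 226 with cells divided at the median Fn1 share, 1558 and 1761 in cells of 5000 to 15000 UMIs, 1598 and 1266 in cells without Ms4a7, 926 and 748 between the outer of 4 equal groups of Fn1 share, 789 and 860 with equal weight per cell, and 120 and 72 of 1240 in cells under 5000 UMIs. The median share of cells with both partners was 45.5%, and 21.2% with at least 2 UMIs of each, 19.1% after thinning and 32.2% in cells of 5000 to 15000 UMIs. Between the libraries the median log2 ratio of 0.05 turned to -0.51 with equal weights, -0.14 without uninjured cells mostly of haemoglobin and -0.20 with totals free of mitochondrial, ribosomal and haemoglobin genes; the count lower rose from 2 to 4 with equal weights, which added Itgam and Itga6, and the count higher from 3 to 5 with no filter on low values. The cause of these changes was not tested, apart from depth and thresholds that act by construction. No member called in Fn1-high against Fn1-low cells changed direction under any alternative run. No paired analysis was possible because each group was 1 library.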
